A study of Mus musculus with 12 samples.

Results

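Translation initiation factors are the proteins that bring the ribosome, the initiator tRNA and the mRNA together at a start codon. Their transcripts were followed in mouse CD8 T cells before and after activation, by taking every gene of the expression table whose symbol starts with Eif1 to Eif6. The eIF2 kinases (symbols starting with Eif2ak) and pseudogene names containing -ps were left out, which gave 52 genes of 48709 in the table. The 7 rows with -ps names were at 0 in every library. Of these 52 genes, 49 were above 0 in at least 1 library, and 48 reached 1 TPM in 3 or more of the 12 libraries, the condition for being tested. Eif2s3y and Eif4e1b were listed at 0 in every library, as was Eif2c5, an Argonaute gene that is included by its symbol alone. Eif4ebp3 did not exceed 0.681 TPM in any library and was not tested. The cells came from spleens of OT-I mice, a strain in which CD8 T cells express a transgenic T cell receptor that recognises a peptide of ovalbumin. The Naive group was collected without activation. The 24h, 48h and 72h groups were collected at these times after activation began with antibodies to CD3 (2 ug/ml) and CD28 (1 ug/ml) and IL-2 (10 ng/ml). These stimulate the T cell receptor complex, a costimulatory receptor and the IL-2 receptor. The stimulus was kept for 48 h, so the 72h cells had been off the activation plates for their last day. Each group had 3 libraries, which the submitters call biological replicates. The animals behind them are not given, so p-values measure the spread between these libraries. The extraction note mentions transferred OT-I cells, and whether that applies here is not given.

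In the textbook scheme, eIF2 carries the initiator tRNA to the small ribosomal subunit, where eIF1, eIF1A, eIF3 and eIF5 assemble, and eIF2B recharges eIF2 with GTP after each round. The cap of the mRNA is bound by eIF4E, which joins the scaffold eIF4G and the RNA helicase eIF4A in a complex called eIF4F. eIF4E-binding proteins block that step until the kinase mTORC1 phosphorylates them. Resting T cells make little protein, and activation through the T cell receptor is known to raise protein synthesis before the cells divide.

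Levels are given as TPM, in which reads are divided by transcript length and scaled so that every library has the same sum. A TPM value is a share of a library, so a change in total RNA per cell is not seen in it, and in bulk RNA a smaller share of cells and less RNA per cell cannot be told apart. Fold changes are differences of log2(TPM + 1) fitted with limma over all 12630 genes tested, which understates the change of low genes. A call needed an adjusted p under 0.05 together with a change of at least 2-fold, and "rose" and "fell" refer to such calls. The depth recovered from the values was 14312854 to 19495722 reads per library. The Naive libraries held more transcripts of B, myeloid, erythroid and platelet markers than the activated ones. Summed levels of 10 B cell markers ran from 776 to 867 TPM at 24h, 353 to 377 TPM at 48h and 531 to 556 TPM at 72h, against 4040 to 5990 TPM in Naive. The 9 myeloid markers in the table summed to 16.9 to 23.3 TPM at 24h, 7.82 to 11.2 TPM at 48h and 4.71 to 5.41 TPM at 72h, against 922 to 2280 TPM in Naive, and at 72h only 1 of the 9 (Cd68) was above 0. Erythroid and platelet markers summed to 16.3 to 17.8 TPM at 24h, against 1550 to 2170 TPM in Naive, and at 72h to 2.68 to 4.03 TPM. NK cell markers summed to 186 to 210 TPM at 24h, 354 to 406 TPM at 48h and 54.3 to 59.9 TPM at 72h, against 382 to 773 TPM in Naive. In the activated groups this sum does not measure NK cells, since Prf1, which activated CD8 T cells also express, made up most of it at 24h and 48h (318 to 375 TPM at 48h). Without Prf1 the other 9 summed to 25.8 to 28.6 TPM at 24h, 28.8 to 36 TPM at 48h and 26.2 to 30.7 TPM at 72h, against 237 to 641 TPM in Naive. Klrc1 led this remainder in the activated groups, at 14.0 to 16.0 TPM at 24h, 23.0 to 28.8 TPM at 48h and 21.2 to 24.9 TPM at 72h. The 10 T cell markers, Cd8a and Cd8b1 among them, were above 0 in all groups and summed to 4490 to 4790 TPM at 24h and 7180 to 7640 TPM in Naive. The 3 CD4 T cell markers summed to 1.88 to 2.5 TPM at 24h, 6.22 to 8.49 TPM at 48h and 3.49 to 4.69 TPM at 72h, against 7.56 to 16.3 TPM in Naive. Zbtb7b led the CD4 sum at 48h, and without it Cd4 and Foxp3 came to 0.476 to 0.754 TPM at 48h, against 4.27 to 9.41 TPM in Naive. Ighm led the B cell sum in the activated groups, and without it the other 9 came to 65.2 to 74.7 TPM at 72h, against 2530 to 3680 TPM in Naive. Prf1, Klrc1, Zbtb7b and Ighm were singled out after their values were seen. The part of these other cells in the comparisons with Naive was not tested.

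The 52 transcripts together took up about 1% of the Naive libraries and more after activation. They summed to 9244, 9768 and 9646 TPM in the Naive libraries, 18404, 19133 and 18498 TPM at 24h, 15840.2, 15843 and 15952 TPM at 48h, and 15370.5, 15392 and 15284 TPM at 72h. All activated libraries lay above all Naive libraries, and the 24h libraries lay highest. Each of the 5 comparisons gave an exact 2-sided permutation p of 0.1, the smallest that 3 against 3 libraries allow. The sum is led by a few abundant genes. In the Naive libraries Eif1 was the most abundant of them, with a mean of 1639 ± 40.4 TPM (SD, n = 3), and at 24h it was Eif5a, with 2738 ± 103 TPM.

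At 24h, 32 of the 48 tested factors were higher than in Naive and 1 was lower, while 25.7% and 21% of all genes tested were called higher and lower. At 48h against Naive, 27 were higher and 0 lower in limma, beside 24.7% and 20.7% of all genes. With limma voom on recovered reads that count of 0 became 1, and at an unadjusted p under 0.05 with no fold minimum 8 factors were lower. Counts at an unadjusted p, here and below, were not made over all genes, so no share of all genes stands beside them. At 72h against Naive, 29 were higher and 1 lower, beside 24.5% and 19% of all genes. The same shares of all genes stand beside the counts by role below. By adjusted p alone, 41 were higher and 4 lower at 24h (45.9% and 36.6% of all genes), 38 and 8 at 48h (46.2% and 36.7%), and 39 and 7 at 72h (47.5% and 34.8%). The factors had a median log2 fold change of 1.49 at 24h, with 0.15 over all genes tested. Their median was 1.19 at 48h and 1.23 at 72h, with 0.15 and 0.21 over all genes. These 3 comparisons share the Naive libraries. Full separation of libraries from Naive was common over all genes tested. At 24h 46.0% of them had every library above every Naive library and 35.6% every library below, beside 41 and 4 of the 48 factors. The shares were 46.4% and 35.8% at 48h (38 and 7 factors) and 47.6% and 34.0% at 72h (39 and 6 factors). Rescaling the TPM by median-of-ratios lowered the all-gene median at 24h to -0.08 and that of the factors to 1.22, with 27 factors called higher and 2 lower. The calls lost at 24h were those of Eif1b, Eif2d, Eif3g, Eif3i and Eif4g2 (0.73 to 1.00). The same rescaling changed the calls over all genes at 24h to 2509 higher and 3281 lower, against 3245 and 2657 with TPM as deposited. In all, 24 factors were called higher at all 3 times, 11 at 1 or 2 of them, and 13 at none. The highest group mean was at 24h for 32 factors, at 48h for 3, at 72h for 8 and in Naive for 5. Neither the counts of calls over the 3 times nor those of the highest mean were made over all genes. Whether they are particular to these factors is therefore not known.

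**Figure D1:**
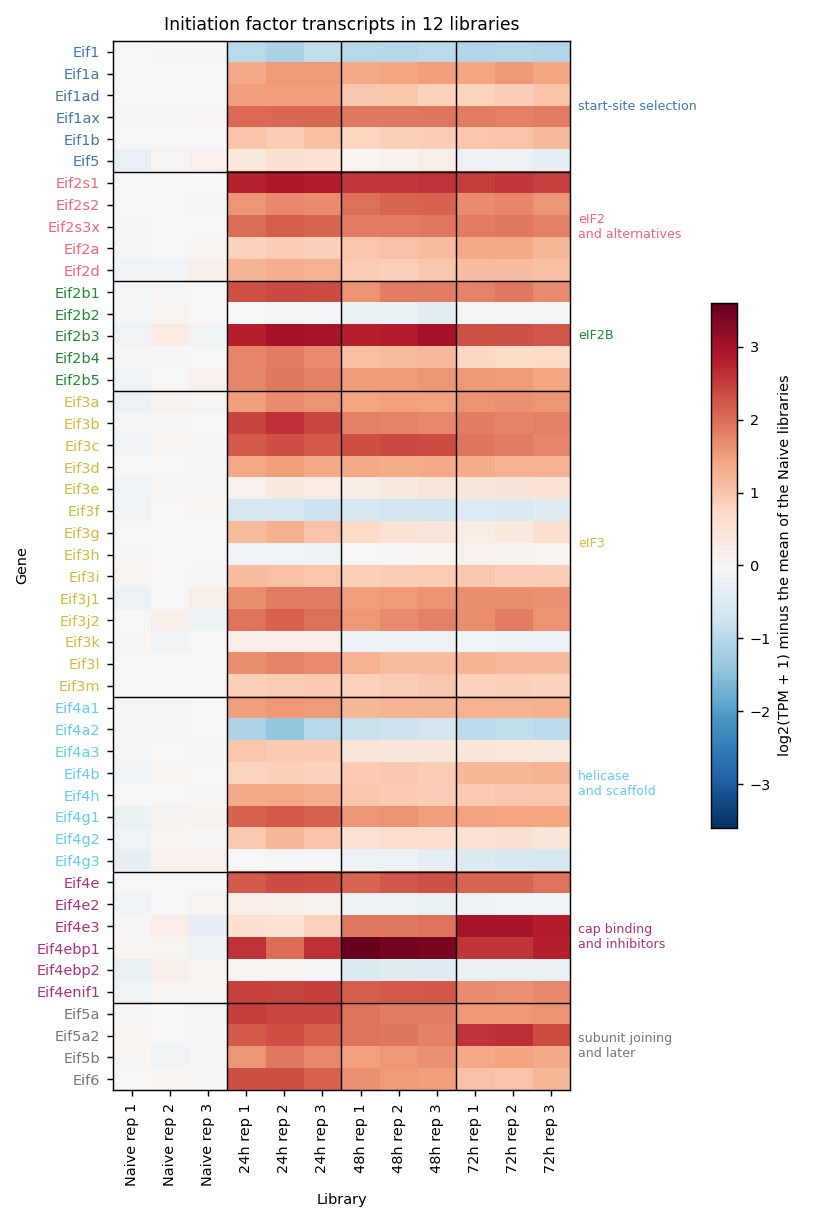
Each row is one of the 48 tested initiation factor genes and each column one of the 12 libraries, ordered by group, with rows grouped by role. Colour gives log2(TPM + 1) minus the mean of the 3 Naive libraries. Red fills most rows at 24h, 48h and 72h, while Eif1, Eif4a2 and Eif3f are blue, and Eif4ebp1 and Eif4e3 are darkest at 48h and 72h.

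**Figure D2:**
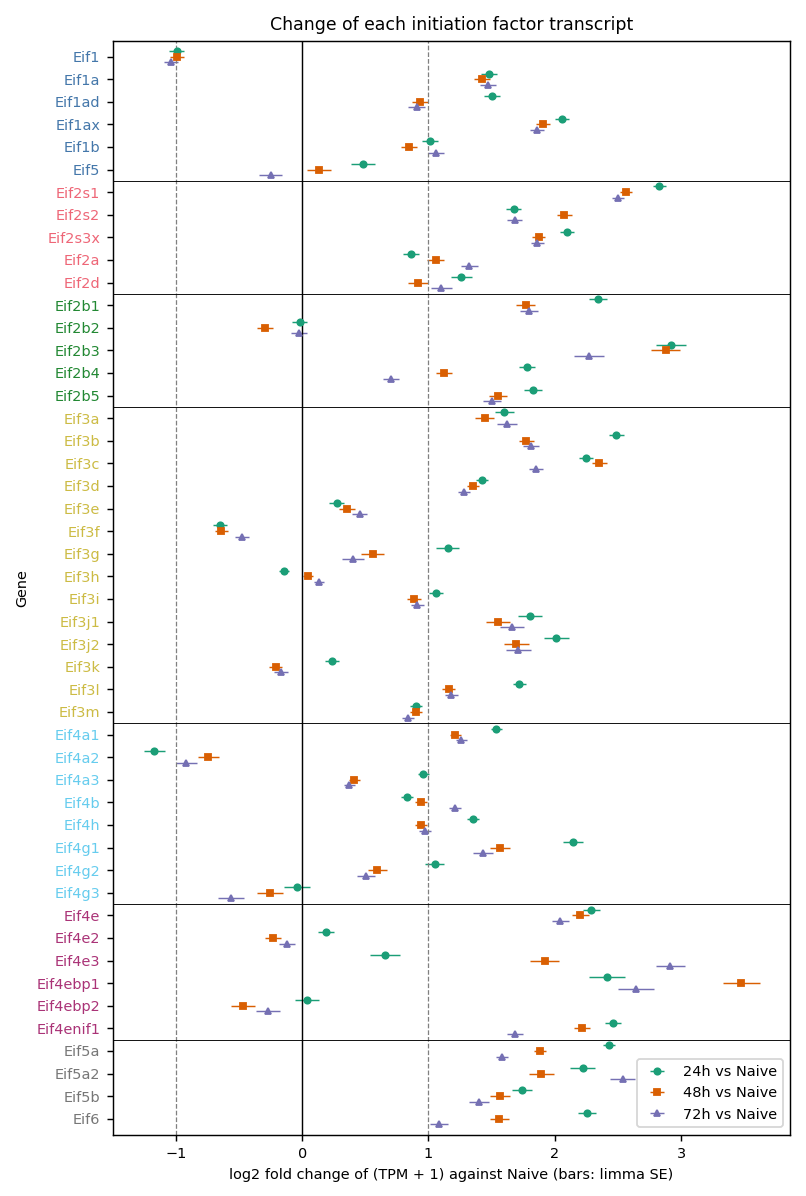
The horizontal axis gives the log2 fold change of (TPM + 1) against Naive at 24h (circles), 48h (squares) and 72h (triangles), with bars for the limma standard error. Dashed lines mark a 2-fold change in either direction. Most factors lie right of the 2-fold line at 24h, and Eif4e3 lies at 0.66 at 24h, 1.92 at 48h and 2.92 at 72h.

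The eIF2 group rose in 4 of 5 tested genes at 24h and at 48h and in 5 of 5 at 72h. Eif2s1 (ENSMUSG00000021116) encodes the alpha subunit, the target of the eIF2 kinases, and had 45.1, 45.3 and 45.4 TPM in the Naive libraries, 313, 343 and 328 TPM at 24h, 271, 269 and 277 TPM at 48h, and 259, 269 and 255 TPM at 72h. Its 3 Naive libraries were nearly equal, and every activated library was more than 5 times their level. The rise at 24h was 7.25-fold as a ratio of means (log2 fold change 2.83 ± 0.05 SE, limma adjusted p = 4.46e-14). Eif2s2, the beta subunit, had 59.2, 59.7 and 61.5 TPM in the Naive libraries, 184, 201 and 198 TPM at 24h, 242, 262 and 267 TPM at 48h, and 199, 205 and 183 TPM at 72h, and was highest at 48h. It differed between 48h and 24h by 0.40 on the log2 scale, below the 2-fold minimum (limma adjusted p = 0.00012). The gamma subunit comes from an X-linked and a Y-linked gene. Eif2s3x (ENSMUSG00000035150) had 193, 200.2 and 202 TPM in the Naive libraries, 796, 909.7 and 855 TPM at 24h, 714, 724 and 746 TPM at 48h, and 729, 746 and 697 TPM at 72h, whereas its Y-linked partner Eif2s3y was listed at 0 in all 12 libraries. Eif2s3x rose 4.30-fold at 24h (log2 fold change 2.10 ± 0.05 SE, limma adjusted p = 7.91e-13). The gamma transcript was the most abundant of the eIF2 subunits, and the highest subunit stood at 4.39 ± 0.124 times the lowest at 24h and 4.38 ± 0.0887 times in Naive (SD, n = 3 each). This ratio was 2.84 ± 0.102 at 48h and 3.70 ± 0.0986 at 72h (SD, n = 3 each), and neither group overlapped with Naive (exact 2-sided permutation p = 0.1 for each, the smallest possible). The eIF2 subunits were closest in level at 48h, when Eif2s2 was at its highest. The lowest subunit was Eif2s1 in every Naive library and Eif2s2 in every activated library, so equal ratios in Naive and at 24h do not mean the same order. Eif2a and Eif2d, which can deliver initiator tRNA without eIF2, had log2 fold changes of 0.86 and 1.26 at 24h and of 1.32 and 1.10 at 72h. Eif2a passed the 2-fold minimum at 48h and 72h, and Eif2d at 24h and 72h. The 48h call of Eif2a (1.06) and the 72h call of Eif2d were lost with median-of-ratios scaling (0.83 for each) and with quantile normalization (0.79 and 0.91). Both were also lost with a pseudocount of 5 (0.99 and 0.92), and that of Eif2a with voom (0.94).

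Of the 5 subunits of eIF2B, the exchange factor for eIF2, 4 rose at 24h, 4 at 48h and 3 at 72h. Eif2b3 (ENSMUSG00000028683), the gamma subunit, showed the largest log2 change of all 48 factors at 24h. It had 2.80, 4.07 and 2.73 TPM in the Naive libraries, 27.8, 32.3 and 31.5 TPM at 24h, 28.2, 28.5 and 32.2 TPM at 48h, and 19.3, 19.5 and 18.5 TPM at 72h. No activated library came near the Naive range, and the 24h rise was 9.54-fold (log2 fold change 2.92 ± 0.12 SE, limma adjusted p = 4.74e-11). Eif2b1 (alpha), Eif2b4 (delta) and Eif2b5 (the catalytic epsilon subunit) rose by 2.34, 1.78 and 1.83 on the log2 scale at 24h. Eif2b4 had a log2 fold change of 0.70 at 72h, under the minimum, and its 48h call (1.13) was lost with median-of-ratios scaling and quantile normalization (0.90 with each). Eif2b2, the beta subunit, averaged 83.8 ± 2.22 TPM at 24h and 85.1 ± 4.94 TPM in Naive (SD, n = 3 each), and its ranges overlapped (log2 fold change -0.02, limma adjusted p = 0.762). In Naive cells Eif2b2 was the highest of the 5 subunits and Eif2b3 the lowest, and the highest subunit stood at 28.8, 22.2 and 30.9 times the lowest in the 3 libraries. That ratio came to 4.97, 4.74 and 4.52 in the 24h libraries, 4.21, 4.13 and 3.77 in the 48h libraries and 6.18, 6.01 and 5.93 in the 72h libraries. The 5 transcripts were closer to each other in level in every activated library than in any Naive library.

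The large complex eIF3, which holds the small ribosomal subunit ready for mRNA, was divided by the 2-fold minimum into subunits that rose and subunits that did not. At 24h, 9 of its 14 tested genes rose, and at 48h and 72h 7 rose. Eif3b (ENSMUSG00000056076), a core scaffold subunit, had 125, 135 and 133 TPM in the Naive libraries, 713, 821 and 693 TPM at 24h, 459, 456 and 438 TPM at 48h, and 472, 458 and 461 TPM at 72h. All activated libraries were above all Naive libraries, and the 24h libraries were above the later ones. Its rise at 24h was 5.66-fold (log2 fold change 2.49 ± 0.06 SE, limma adjusted p = 6.24e-13). Eif3c, which belongs to the core with Eif3a, rose by 2.25 on the log2 scale at 24h and by 2.35 at 48h, and Eif3a by 1.60 and 1.44. Eif3l, Eif3d, Eif3g and Eif3i rose at 24h by 1.72, 1.42, 1.15 and 1.06, and the calls of Eif3g and Eif3i were lost with median-of-ratios scaling, quantile normalization and voom. At 48h and 72h the calls of Eif3l were lost with median-of-ratios scaling (0.93 and 0.89) and quantile normalization (0.93 and 0.96). The 72h call of Eif3d was lost with median-of-ratios scaling (0.99). Eif3j1 and Eif3j2, near-identical copies encoding a loosely attached subunit, rose by 1.80 and 2.01. Reads from such copies may be split between them, since how shared reads were counted is not given in the sources used here, and their separate levels are uncertain. Eif3j1 had 19.9, 23.0 and 27.1 TPM in the Naive libraries, 75.5, 88.2 and 86.9 TPM at 24h, 67.4, 69.1 and 73.0 TPM at 48h, and 75.9, 75.8 and 74.4 TPM at 72h. Eif3j2 had 33.7, 38.4 and 30.0 TPM in the Naive libraries, 133, 150.1 and 137 TPM at 24h, 102, 113 and 122 TPM at 48h, and 109, 125 and 107 TPM at 72h. Each stood below the other eIF3 transcripts in Naive, and every activated library was above every Naive library for both.

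Eif3f, Eif3h, Eif3e, Eif3k and Eif3m did not reach the 2-fold minimum for a rise at any time. Eif3h, abundant in all groups, had 969, 939.8 and 934 TPM in the Naive libraries, 863, 865 and 841 TPM at 24h, 964, 967 and 997 TPM at 48h, and 1060.3, 1038 and 1023 TPM at 72h. Its values at 24h were below those in Naive and its values at 72h above, by -0.15 and 0.14 on the log2 scale, and the sign at 72h turned with median-of-ratios scaling (-0.15) and voom (-0.020). Eif3f, which like Eif3h carries an MPN domain, had 531, 574 and 589 TPM in the Naive libraries, 374, 364 and 338 TPM at 24h, 372, 353 and 359.7 TPM at 48h, and 406, 396 and 415 TPM at 72h. Every activated library was below every Naive library, with a log2 fold change of -0.65 at 24h that did not reach 2-fold (limma adjusted p = 8.71e-08). Eif3e had log2 fold changes of 0.27, 0.35 and 0.46 at the 3 times, Eif3k of 0.24, -0.21 and -0.17, and Eif3m of 0.90, 0.90 and 0.84. Eif3m was higher by adjusted p at each time (limma adjusted p = 6.88e-10, 7.85e-10 and 1.73e-09), as was Eif3e (0.000979, 0.000112 and 1.14e-05). Eif3i, called at 24h only, had values like those of Eif3m at 48h and 72h (0.88 and 0.91). With median-of-ratios scaling the values of Eif3e and Eif3k at 24h turned to -0.0043 and -0.041, and with quantile normalization that of Eif3k to -0.19. Among the 12 subunits other than the Eif3j copies, Eif3h, Eif3e and Eif3f were the most abundant in Naive cells, at 947 ± 18.9, 665 ± 34.1 and 565 ± 29.8 TPM. The highest of these 12 stood at 7.80, 8.17 and 8.37 times the lowest in the Naive libraries, 4.17, 4.14 and 4.03 times at 24h, 6.34, 6.37 and 6.50 times at 48h and 6.45, 6.76 and 6.65 times at 72h. By this ratio the subunits were closest in level at 24h, with no overlap with the other groups.

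**Figure D3:**
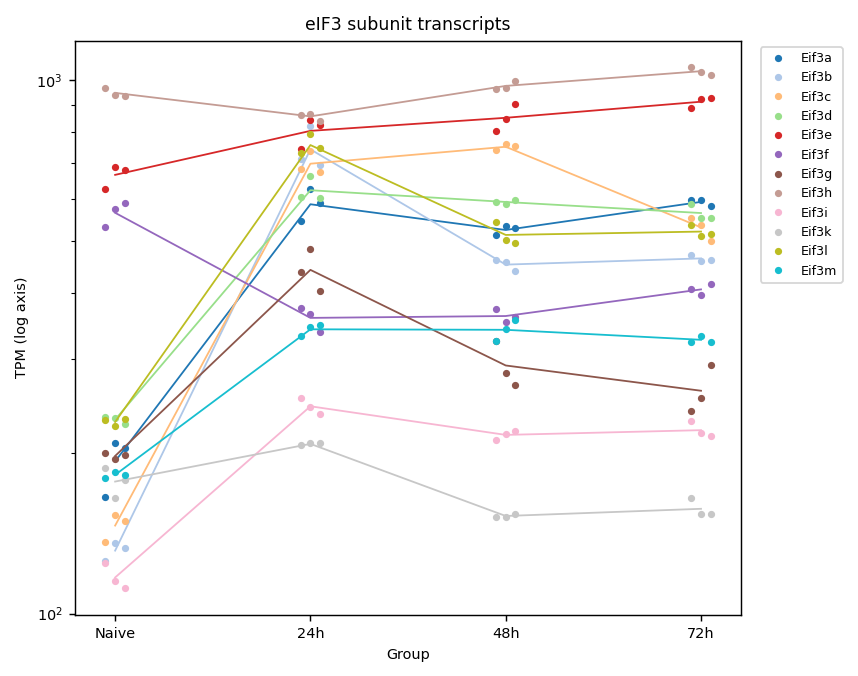
TPM of 12 eIF3 subunits on a log axis against group, with a point for each library and a line through the group means. Subunits that are low in Naive, such as Eif3b and Eif3c, come near the level of Eif3e and Eif3h at 24h, while Eif3f moves down.

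Of 8 tested genes for eIF4A, its helpers and the eIF4G scaffolds, 4 rose and 1 fell at 24h. At 48h 2 of the 8 rose, a share near the 24.7% of all genes, and at 72h 3. The helicase eIF4A comes from a pair of paralogs that moved in opposite directions at 24h. Eif4a1 (ENSMUSG00000059796) had 415, 449 and 441 TPM in the Naive libraries, 1240.1, 1289 and 1267 TPM at 24h, 1002, 1008 and 1016 TPM at 48h, and 1034, 1039.7 and 1056 TPM at 72h. It rose 2.91-fold at 24h (log2 fold change 1.54 ± 0.04 SE, limma adjusted p = 1.54e-12). Eif4a2 (ENSMUSG00000022884) had 372, 396 and 388 TPM in the Naive libraries, 178, 145 and 192 TPM at 24h, 219.6, 230.1 and 240.2 TPM at 48h, and 199.6, 209 and 201 TPM at 72h. It fell at 24h to 0.445 times its Naive level (log2 fold change -1.17 ± 0.08 SE, limma adjusted p = 1.87e-08), with every activated library below every Naive library. At 48h and 72h its log2 fold changes of -0.74 and -0.92 did not reach the minimum, though the 72h value did with median-of-ratios scaling (-1.21), quantile normalization (-1.13) and voom (-1.08). With median-of-ratios scaling the rise of Eif4a1 was 0.98 at 48h and 0.97 at 72h, just short of a call. Eif4a2 made up 47.3, 46.9 and 46.8% of the summed TPM of both paralogs in the Naive libraries, 12.5, 10.1 and 13.2% at 24h, 18.0, 18.6 and 19.1% at 48h and 16.2, 16.7 and 16.0% at 72h. In all 9 activated libraries Eif4a1 dominated, whereas the mixture in the Naive libraries was near even (exact 2-sided permutation p = 0.1 for each time against Naive, the smallest possible). Eif4a3, the helicase of the exon junction complex, which marks spliced mRNA, had log2 fold changes of 0.96, 0.41 and 0.37 at the 3 times.

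The scaffolds also differed from each other. Eif4g1 (ENSMUSG00000045983), the main scaffold of eIF4F, had 106, 134 and 134 TPM in the Naive libraries, 549, 572 and 538 TPM at 24h, 378, 379.9 and 352 TPM at 48h, and 339, 332 and 335 TPM at 72h. It rose 4.43-fold at 24h (log2 fold change 2.15 ± 0.08 SE, limma adjusted p = 2.34e-11), and its 24h libraries were the highest. Eif4g3 (ENSMUSG00000028760), its paralog, had 49.2, 68.2 and 67.6 TPM in the Naive libraries, 61.5, 58.0 and 58.5 TPM at 24h, 52.2, 53.1 and 47.7 TPM at 48h, and 41.9, 40.2 and 40.7 TPM at 72h. The Naive range of Eif4g3 spanned the 24h values (log2 fold change -0.04, limma adjusted p = 0.731), and its 72h values lay below all Naive values, with a log2 fold change of -0.56, under the 2-fold minimum. Eif4g2, a relative that lacks the eIF4E-binding site, rose at 24h by 1.05. That call was lost with median-of-ratios scaling (0.77), quantile normalization (0.82) and voom (0.89), and on leaving out the first Naive library (0.98) or the second 24h library (0.98). The helicase stimulators differed in timing. Eif4h was highest at 24h, at 419 ± 14.6 TPM against 163 ± 3.53 TPM in Naive, and Eif4b was highest at 72h, at 828 ± 8.89 TPM against 358 ± 19.8 TPM in Naive (SD, n = 3 each). Eif4b rose by 1.21 on the log2 scale at 72h and stood at 0.83 at 24h, under the minimum. The 72h call of Eif4b was lost with median-of-ratios scaling (0.92), and the 24h call of Eif4h with quantile normalization (0.92).

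Among the 6 tested genes of cap binding and its control, 3 rose at 24h and 4 at 48h and at 72h. Eif4e (ENSMUSG00000028156), the cap-binding protein, had 28.3, 28.1 and 28.4 TPM in the Naive libraries, 133, 149 and 144 TPM at 24h, 124, 136 and 142 TPM at 48h, and 123, 123 and 113 TPM at 72h. Its Naive values were almost identical, and it rose 5.03-fold at 24h (log2 fold change 2.29 ± 0.07 SE, limma adjusted p = 2.59e-12). Eif4e3 (ENSMUSG00000093661), a weaker cap-binding paralog, had 18.3, 21.0 and 14.1 TPM in the Naive libraries, 27.5, 25.8 and 32.0 TPM at 24h, 68.2, 68.6 and 71.2 TPM at 48h, and 145, 143 and 131 TPM at 72h. It was the only one of the 48 factors whose mean passed 2-fold between both later neighbouring times, by ratio of means. The ratio was 2.44 at 48h against 24h (log2 fold change 1.26 ± 0.12 SE, limma adjusted p = 2.42e-06) and 2.01 at 72h against 48h, where the log2 change of 0.997 was just short of a call. At 72h Eif4e3 stood 7.83-fold above Naive (log2 fold change 2.92 ± 0.12 SE, limma adjusted p = 6.94e-11), and its 72h values were above those of Eif4e at that time. Its share of the summed TPM of Eif4e, Eif4e2 and Eif4e3 was 20.8, 22.6 and 15.9% in the Naive libraries, 13.0, 11.4 and 14.2% at 24h, 29.7, 28.4 and 28.5% at 48h and 47.2, 46.6 and 45.9% at 72h. The share was lowest at 24h and highest at 72h, with no overlap between any groups. Eif4e2, a cap-binding repressor, had log2 fold changes of 0.19, -0.23 and -0.12, and the sign at 24h turned with median-of-ratios scaling (-0.083) and quantile normalization (-0.16).

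The eIF4E-binding proteins also differed from each other. Eif4ebp1 (ENSMUSG00000031490) had 11.8, 11.9 and 9.77 TPM in the Naive libraries, 72.0, 47.9 and 74.8 TPM at 24h, 146, 132 and 125 TPM at 48h, and 70.7, 71.1 and 83.5 TPM at 72h. It showed the largest rise of all 48 factors at 48h, with a mean of 134 ± 10.8 TPM at 48h against 11.2 ± 1.22 TPM in Naive (log2 fold change 3.48 ± 0.15 SE, limma adjusted p = 9.05e-11), and all 72h libraries were below all 48h libraries. The 24h libraries were spread, with replicate 2 lowest. The rise at 48h against 24h (log2 fold change 1.06 ± 0.15 SE, limma adjusted p = 5.69e-05) was no longer called without that library (0.86). Eif4ebp2 (ENSMUSG00000020091) had 178, 245 and 225 TPM in the Naive libraries, 231, 228 and 202 TPM at 24h, 152, 158 and 155 TPM at 48h, and 179, 176 and 177 TPM at 72h. Its 24h values lay within the Naive range (log2 fold change 0.04, limma adjusted p = 0.721), with a sign that turned under median-of-ratios scaling (-0.24), quantile normalization (-0.37) and voom (-0.13). Eif4ebp1 supplied 6.22, 4.65 and 4.16% of the summed TPM of both in the Naive libraries, 23.8, 17.4 and 27.0% at 24h, 49.1, 45.6 and 44.7% at 48h and 28.3, 28.7 and 32.0% at 72h. Set against their target, both inhibitor transcripts together came to 6.73, 9.13 and 8.29 times the Eif4e level in the Naive libraries, 2.28, 1.85 and 1.92 times at 24h, 2.40, 2.14 and 1.97 times at 48h and 2.03, 2.01 and 2.31 times at 72h. All Naive ratios were above all later ones (exact 2-sided permutation p = 0.1 for each time, the smallest possible). The activated groups overlapped, with p = 0.5 for 48h against 24h and p = 0.7 for 72h against 48h in the same exact permutation test. Transcript ratios say nothing of phosphorylation, by which these inhibitors are controlled. Eif4enif1, another eIF4E-binding protein that acts in repression and transport, rose by 2.46 on the log2 scale at 24h, 2.21 at 48h and 1.69 at 72h.

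**Figure D4:**
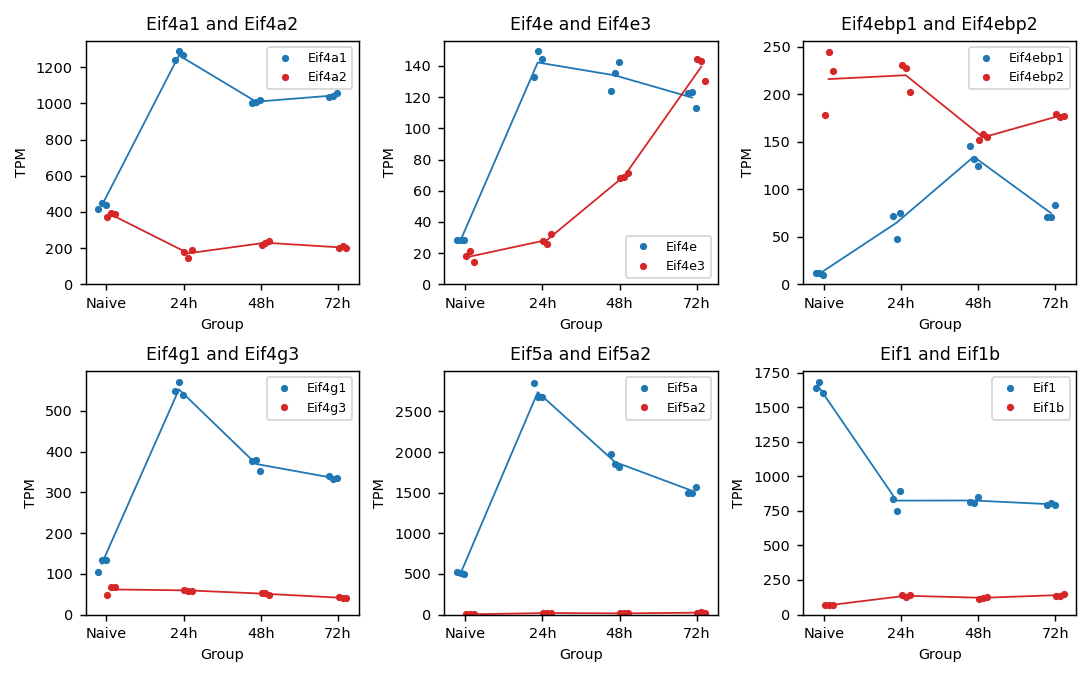
TPM of 6 pairs of related factors against group, with a point for each library and a line through the group means. Eif4a1, Eif4e, Eif4g1 and Eif5a jump at 24h, Eif4a2 and Eif1 drop, Eif4e3 climbs to the level of Eif4e by 72h, and Eif4ebp1 peaks at 48h.

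**Figure D5:**
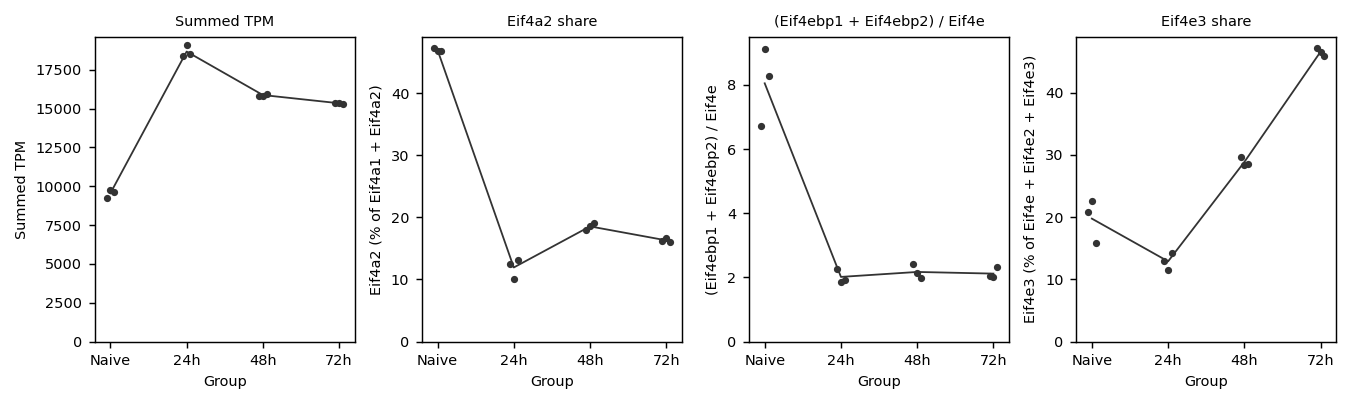
From left to right against group, with a point for each library and a line through the group means: the summed TPM of the 52 factors, the Eif4a2 percentage of both eIF4A paralogs, the ratio of both eIF4E-binding protein transcripts to Eif4e, and the Eif4e3 percentage of the 3 eIF4E family transcripts. The Naive libraries are lowest in the first panel and highest in the second and the third, and the 72h libraries are highest in the fourth.

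Factors of start-site selection, which decide how strictly the start codon is read, included Eif1, the most abundant factor of Naive cells, whose level was lower after activation. Of the 6 tested genes 4 rose at 24h, 2 at 48h and 3 at 72h, beside 25.7%, 24.7% and 24.5% of all genes. The count of 2 of 6 at 48h is near that share. Eif1 (ENSMUSG00000035530), which guards against initiation at wrong codons, had 1635, 1681 and 1601 TPM in the Naive libraries, 833, 749 and 891 TPM at 24h, 816, 808 and 850.2 TPM at 48h, and 793, 807 and 794 TPM at 72h. Every activated library was well below every Naive library. The log2 fold changes of -0.99 at 24h and -0.99 at 48h were just under the 2-fold minimum, and that of -1.04 at 72h was called lower (SE 0.06, limma adjusted p = 1.55e-09). The 24h value was called with median-of-ratios scaling (-1.27), with voom (-1.16), and on leaving out the third Naive library (-1.01), or the 24h library numbered 1 or 3 (-1.05 with number 3 left out), and the 72h call was lost with quantile normalization (-0.89). Eif1b, a close paralog, had 68.1, 65.7 and 67.0 TPM in the Naive libraries, 138, 127 and 142 TPM at 24h, 114, 123 and 126 TPM at 48h, and 135, 137 and 151 TPM at 72h. It passed the 2-fold minimum at 24h (1.01) and 72h (1.06), but both calls were lost with median-of-ratios scaling, quantile normalization and voom. The 24h call was also lost on leaving out the second Naive library (1.00, just under), or the 24h library numbered 1 (0.99) or 3 (0.98). The eIF1A genes Eif1a (ENSMUSG00000057561) and Eif1ax (ENSMUSG00000067194) are near-identical copies whose reads may be split. Eif1a had 83.7, 84.7 and 84.6 TPM in the Naive libraries, 218, 246 and 247 TPM at 24h, 219, 228 and 239 TPM at 48h, and 229, 252 and 227 TPM at 72h. Eif1ax had 25.8, 25.2 and 28.4 TPM in the Naive libraries, 112, 113 and 115 TPM at 24h, 100.5, 101 and 104 TPM at 48h, and 99.8, 96.3 and 99.7 TPM at 72h. Both rose at all 3 times, by 1.48 and 2.06 on the log2 scale at 24h. Eif1ad, which carries an eIF1A-like domain, rose by 1.50 at 24h. Eif5, which triggers GTP hydrolysis by eIF2, had 292, 370.3 and 391 TPM in the Naive libraries, 456, 513 and 492 TPM at 24h, 363, 383 and 402 TPM at 48h, and 299, 299 and 280.4 TPM at 72h, with log2 fold changes of 0.48, 0.13 and -0.25 that did not reach the minimum. The sign at 48h turned with median-of-ratios scaling (-0.10) and quantile normalization (-0.014).

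All 4 genes of subunit joining and later steps rose at all 3 times against Naive. Eif5a (ENSMUSG00000078812) encodes a protein that carries the amino acid hypusine and helps ribosomes through difficult stretches. It had 520.0, 505 and 497 TPM in the Naive libraries, 2857, 2675 and 2681 TPM at 24h, 1970.5, 1849 and 1814 TPM at 48h, and 1499, 1499.5 and 1573 TPM at 72h. It rose 5.40-fold at 24h (log2 fold change 2.43 ± 0.05 SE, limma adjusted p = 1.19e-13) and its levels at 48h and 72h lay below those of each earlier activated group without overlap. Its paralog Eif5a2 (ENSMUSG00000050192) was scarce, with 3.35, 3.21 and 2.92 TPM in the Naive libraries, 18.3, 19.6 and 17.4 TPM at 24h, 15.0, 14.8 and 13.6 TPM at 48h, and 24.5, 25.2 and 20.1 TPM at 72h. The rise of Eif5a2 was 5.83-fold at 24h (log2 fold change 2.22 ± 0.10 SE, limma adjusted p = 1.53e-10) and 7.36-fold at 72h (log2 fold change 2.54 ± 0.10 SE, limma adjusted p = 5.21e-11), so that it was highest at 72h where Eif5a was lowest of the activated groups. Eif6, which keeps the large ribosomal subunit from joining too early, stood at 263, 261 and 229.8 TPM at 24h against 50.6, 54.7 and 49.7 TPM in Naive. Its later levels were 165, 151 and 149 TPM at 48h and 108, 106 and 119 TPM at 72h. At 72h its rise of 1.08 on the log2 scale was no longer called with median-of-ratios scaling (0.80), quantile normalization (0.78) and voom (0.94). Eif5b, the GTPase of subunit joining, rose by 1.74 on the log2 scale at 24h, 1.57 at 48h and 1.40 at 72h.

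Between activated times few factors changed by 2-fold. At 48h against 24h, 2 of 48 were called higher (Eif4e3 and Eif4ebp1) and 0 lower in limma, beside 4.95% and 3.07% of all genes tested. With adjusted p alone 6 were higher and 29 lower, beside 22.1% and 30% of all genes, at an unadjusted p under 0.05 the counts were 7 and 30, and voom called 2 and 0. The median log2 change was -0.25 over the 48 factors and -0.06 over all genes. The largest of the 29 differences were those of Eif3b (-0.71), Eif6 (-0.70), Eif2b4 (-0.65), Eif3g (-0.59) and Eif4g1 (-0.58). At 72h against 48h, 0 factors were called higher and 0 lower in limma and in voom, beside 2.81% and 3.22% of all genes. With adjusted p alone 7 were higher and 10 lower, beside 23.5% and 19% of all genes, and at an unadjusted p under 0.05 the counts were 10 and 11. Eif4e3 (0.997) and Eif5a2 (0.65) had positive log2 changes in this last step, and Eif4ebp1 (-0.83) and Eif2b3 (-0.61) negative ones. Both steps compare activated libraries only, and a fit without the 3 Naive libraries gave the same counts of 2 and 0, and 0 and 0.

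Promoter sequences were looked at for a motif of MYC and related factors, the E-box CACGTG, which reads the same on both strands, and for TGATGNAAN, the element bound by ATF4 with C/EBP factors. RefSeq promoter windows (build GRCm38.p6), from 250 bases before to 50 after a start of the gene, were matched by symbol for 40 of the 52 factors, 38 of them tested. The E-box lay in 10 of these 40 (25.0%), in 11.9% of 9271 tested genes with a window, and in 8.09% of 27025 genes in all. A gene counted when any of its windows held the motif, and some genes have several windows, such as Eif5a with 6 and Eif4e with 2. Genes with more windows had more chances of a match, and these shares were not adjusted for the number of windows. The ATF4 element lay in 1 of 40 (2.5%, Eif2s3x), beside 2.75% of tested genes, with both strands searched. The 10 factors with an E-box were Eif1b, Eif3a, Eif3f, Eif3k, Eif4a1, Eif4e, Eif4g1, Eif4h, Eif5a and Eif5a2. Of these 10, 8 rose at 24h with a median log2 fold change of 1.57, and of the 28 tested factors with a window and no E-box 17 rose, with a median of 1.46. A match is a run of letters and not a bound site. The 250 bases before the start are printed for the 3 parts of eIF4F that rose together, for Eif4a2, the paralog that fell and has no E-box in its window, and for Eif3f, which has one and did not rise. They are read on the gene's strand, with the E-box in capitals. Eif4e has 2 windows, and the one printed was picked because it holds the most E-boxes, while its other window holds none. Eif4e lies at chr3:138527018-138527267 (plus strand), Eif4g1 at chr16:20672477-20672726 (plus strand), Eif4a1 at chr11:69672424-69672673 (minus strand), Eif4a2 at chr16:23107218-23107467 (plus strand) and Eif3f at chr7:108934165-108934414 (plus strand).
Eif4e: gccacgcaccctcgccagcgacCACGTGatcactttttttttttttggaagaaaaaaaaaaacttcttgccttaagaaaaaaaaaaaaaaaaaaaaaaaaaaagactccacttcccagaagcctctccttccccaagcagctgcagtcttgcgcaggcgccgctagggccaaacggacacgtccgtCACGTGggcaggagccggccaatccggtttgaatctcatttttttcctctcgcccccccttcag
Eif4g1: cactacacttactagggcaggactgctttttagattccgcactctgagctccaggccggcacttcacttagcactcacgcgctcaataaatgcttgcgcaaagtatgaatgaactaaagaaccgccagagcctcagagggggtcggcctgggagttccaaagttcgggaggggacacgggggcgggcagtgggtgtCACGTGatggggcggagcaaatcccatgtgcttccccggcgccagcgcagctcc
Eif4a1: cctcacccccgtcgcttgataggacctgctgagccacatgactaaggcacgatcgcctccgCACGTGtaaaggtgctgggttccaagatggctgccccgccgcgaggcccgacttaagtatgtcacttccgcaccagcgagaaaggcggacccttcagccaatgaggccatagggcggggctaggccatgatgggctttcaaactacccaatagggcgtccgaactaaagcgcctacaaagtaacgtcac
Eif4a2: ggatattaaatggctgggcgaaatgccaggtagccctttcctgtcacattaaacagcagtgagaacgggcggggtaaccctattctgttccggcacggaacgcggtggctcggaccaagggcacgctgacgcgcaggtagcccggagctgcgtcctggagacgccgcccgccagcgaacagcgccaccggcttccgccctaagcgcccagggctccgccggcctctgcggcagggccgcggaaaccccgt
Eif3f: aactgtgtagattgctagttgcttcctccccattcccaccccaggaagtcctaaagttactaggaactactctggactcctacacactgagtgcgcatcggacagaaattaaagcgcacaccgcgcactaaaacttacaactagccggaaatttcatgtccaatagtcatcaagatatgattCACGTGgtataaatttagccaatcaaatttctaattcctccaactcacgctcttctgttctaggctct
Eif4e holds the E-box in 2 places of this stretch, Eif4g1, Eif4a1 and Eif3f in 1 each, and Eif4a2 in none. The same letters stood before genes whose transcripts rose and before Eif3f, whose transcript did not.

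Other genes of the initiation pathway were read from lists that overlap with no factor above. Of 8 tested genes for eIF2 kinases and their counterparts, 2 were higher and 3 lower at each of 24h, 48h and 72h against Naive, with medians of -0.04, 0.21 and 0.45 on the log2 scale beside 0.15, 0.15 and 0.21 over all genes. The 2 higher genes are a share near the 25.7%, 24.7% and 24.5% of all genes called higher, so the count shows nothing particular to these 8, and 21%, 20.7% and 19% of all genes were called lower. Eif2ak2, the kinase PKR that senses double-stranded RNA, rose by 1.42 at 24h, 1.92 at 48h and 3.03 at 72h on the log2 scale, and Eif2ak4, the amino acid sensor GCN2, by 1.39, 1.97 and 1.68. Eif2ak3, the kinase PERK of the endoplasmic reticulum, fell at 24h (log2 fold change -2.55 ± 0.15 SE, limma adjusted p = 2.41e-09). Ppp1r15a, a phosphatase subunit that reverses eIF2 phosphorylation, fell at 24h (log2 fold change -3.53 ± 0.08 SE, limma adjusted p = 3.11e-13) and at 72h (log2 fold change -4.57 ± 0.08 SE, limma adjusted p = 6.15e-14). Impact, which restrains GCN2, fell by 1.88 at 24h. Of 22 tested accessory factors, 11 were higher and 3 lower at 24h (median log2 fold change 1.01), 7 and 2 at 48h (median 0.62), and 8 and 1 at 72h (median 0.55). Of all genes 25.7%, 24.7% and 24.5% were called higher at these times, and 7 of 22 at 48h is near that share. Dhx29, a helicase for structured leaders, rose by 2.33, Larp4, a poly(A)-tail protector, by 2.40, and Pabpc4, a poly(A)-binding protein, by 2.19. The 3 lower at 24h were Pdcd4, which binds and inhibits eIF4A (log2 fold change -2.13 ± 0.09 SE, limma adjusted p = 7.76e-11), Paip2, which inhibits poly(A)-binding protein (log2 fold change -1.33 ± 0.07 SE, limma adjusted p = 4.16e-10), and Mcts2 (-1.20). Dhps and Dohh, which make hypusine on eIF5A, had log2 fold changes of 1.36 and 0.93 at 24h, of which the first was called.

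Of 12 tested elongation and termination factors, 6 were higher and 0 lower at 24h against Naive in limma and in voom, with 4 lower at an unadjusted p under 0.05 and a median log2 fold change of 1.14. By adjusted p alone, 36.6% of all genes were lower at 24h. At 48h 5 were higher (median 0.90), and at 72h 4 (median 0.69). Of all genes 25.7%, 24.7% and 24.5% were called higher at 24h, 48h and 72h, and 4 of 12 at 72h is near that share. The 6 higher at 24h were Eef1d, Eef1e1, Etf1, Gspt1, Abce1 and Pelo. Eef1e1, which is on the list by its symbol, rose most at 24h, by 3.62, and rose by 3.41 at 48h and 2.74 at 72h. At 24h Gspt1, the release factor eRF3a, rose by 3.02, and Abce1, which recycles ribosomes, by 2.31. Eef1a1 and Eef2, the main elongation factors, had values of -0.29 and -0.21 at 24h and were not called. Their values were 0.0002 and 0.07 at 48h and 0.047 and -0.01 at 72h. Of 9 mitochondrial factors, 6 were higher and 0 lower at 24h in limma and in voom, with 0 lower at an unadjusted p under 0.05 and a median of 1.54. At 48h 7 were higher (median 1.35), and at 72h 4 (median 0.97), beside the same shares of all genes. Gfm1 and Tufm, the mitochondrial elongation factors, rose by 3.18 and 2.62. Of 14 genes that carry mTORC1 and MNK signals to initiation, 1 was higher (Rps6kb1, 1.02) and 1 lower at 24h, with a median log2 fold change of 0.07 where that over all genes was 0.15. Both counts are shares below the 25.7% and 21% of all genes called higher and lower at 24h. Voom called 0 higher and 2 lower of these 14 at 24h. The lower one in limma was Ddit4, an inhibitor of mTORC1 (log2 fold change -1.70 ± 0.17 SE, limma adjusted p = 7.43e-07). Against Naive it rose at 48h (log2 fold change 1.74) and at 72h (1.42), so its direction at those times was opposite to that at 24h, and it was higher at 48h than at 24h by 3.44. Ddit4 was the 1 gene of the list called higher at 48h, and Ddit4 and Rps6kb1 (1.09) were the 2 at 72h. Of all genes 24.7% and 24.5% were called higher at 48h and 72h, and 20.7% and 19% lower. In limma 0 were lower at 48h and at 72h, with 7 and 5 lower at an unadjusted p under 0.05 and 3 and 1 called lower by voom, and the medians were -0.15 and -0.13. By adjusted p alone, 36.7% and 34.8% of all genes were lower at 48h and 72h.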

How the data were processed

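RNA from 12 libraries of OT-I CD8 T cells in 4 groups was analysed from TPM values. The authors deposited TPM per gene, with a sum of 1000000 in each library. The submitters' processing notes list cutadapt 2.9, STAR 2.7.7a, FastQC 0.11.9, edgeR 3.36.0 and the GRCm39 build, without their roles. How reads were counted, on which strand, and how shared reads were treated is not given in the sources used here, so levels of near-identical copies are uncertain. Whole reads were recovered for 100.0% of 19181 genes above 0 within a tolerance of 0.001. For some genes the true number may be a multiple of the recovered one. They served for depth and 1 alternative.

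The 12630 genes that reached 1 TPM in 3 or more libraries were tested on log2(TPM + 1) with limma 3.58.1 (R 4.3.3), with 4 group means, empirical Bayes moderation and an intensity trend. P-values were 2-sided and adjusted by Benjamini-Hochberg over these genes in each of 5 comparisons. A call needed an adjusted p under 0.05 and a 2-fold change. Sums, shares and ratios were compared by exact permutation of libraries. The method was tested on simulated data. Values were handled and drawn in Python 3.11.15 (pandas 2.3.3, numpy 2.4.6, matplotlib 3.10.9, scipy 1.17.1).

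Values per library were given by rule for up to 3 factors of largest rise and 3 of largest fall among those called in each comparison and for 8 paralog pairs, and other factors were named by role with ranges or log2 changes. Further factors given per library, such as Eif3h, Eif5 and Eif6, were chosen after their values were seen. The factors, lists and rules were chosen with earlier results of these data known. Alternatives were a pseudocount of 0.1 or 5, no filter or 5 TPM, 2 other scalings, a replicate block, the compared groups only, no fold minimum and each library left out. Chosen after seeing the data were a voom fit of the recovered reads and a fit that left out the Naive libraries.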

Additional observations from a re-analysis of the deposited data

How the results depend on the processing

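Counts of factors called (higher and lower) were 27 and 2 at 24h, 23 and 1 at 48h and 22 and 2 at 72h against Naive with median-of-ratios scaling, 27 and 1, 24 and 0, and 25 and 1 with quantile normalization, and 28 and 2, 26 and 1, and 27 and 2 with voom. The additional lower call was Eif1 at 24h and 48h and Eif4a2 at 72h, each near the 2-fold minimum. Over all genes, median-of-ratios scaling called 2509 and 3281 at 24h, 2563 and 3141 at 48h and 2296 and 3032 at 72h. Quantile normalization called 2970 and 2774, 3018 and 2767, and 2864 and 2547 of all genes. Voom called 3146 and 3337, 3153 and 3168, and 3047 and 3021. Median-of-ratios scaling moved the summed TPM to 10833 in Naive, 17479 at 24h, 15311 at 48h and 14251 at 72h. With no fold minimum the counts were 41 and 4, 38 and 8, and 39 and 7 against Naive, 6 and 29 at 48h against 24h, and 7 and 10 at 72h against 48h. A pseudocount of 0.1 gave 1 higher factor at 72h against 48h, Eif4e3 (1.01). With each library left out, lower counts ran from 1 to 2 at 24h and from 0 to 1 at 48h against Naive, higher counts from 1 to 2 at 48h against 24h, and from 0 to 1 at 72h against 48h. The libraries behind this were Naive replicate 3, 24h replicates 1 and 3 and 48h replicate 3 for Eif1, 24h replicate 2 for Eif4ebp1, and 48h and 72h replicate 3 for Eif4e3. The replicate block gave the same counts as the fit without it (32 and 1, 27 and 0, 29 and 1, 2 and 0, 0 and 0). Same-numbered libraries did not deviate together (correlations of -0.052 to 0.089 over 18 pairs, none over 0.1), so the numbers were not taken as pairing, and 5 of 12 libraries correlated best with their own number. Signs that turned all belonged to changes that were not called. At 24h against Naive these were Eif3e (-0.0043), Eif3k (-0.041), Eif4e2 (-0.083) and Eif4ebp2 (-0.24) with median-of-ratios, Eif3k (-0.19), Eif4e2 (-0.16) and Eif4ebp2 (-0.37) with quantile, Eif4ebp2 (-0.13) with voom and Eif2b2 (-0.060 to 0.022), Eif4ebp2 (-0.094 to 0.13) and Eif4g3 (-0.19 to 0.039) on leaving 1 library out. At 48h against Naive these were Eif3h (-0.19) and Eif5 (-0.10) with median-of-ratios, Eif5 (-0.014) with quantile and Eif3h (-0.092) with voom. At 72h against Naive these were Eif3h (-0.15) with median-of-ratios, Eif3h (-0.020) with voom and Eif2b2 (-0.067 to 0.016) on leaving 1 library out. At 48h against 24h these were Eif3m (0.039) with median-of-ratios, Eif1 (-0.0048), Eif1a (0.029), Eif2b3 (0.0034), Eif3m (0.18) and Eif4e (0.020) with quantile, Eif3m (0.027) with voom and Eif1 (-0.063 to 0.062), Eif3f (-0.030 to 0.044) and Eif3m (-0.036 to 0.030) on leaving 1 library out. At 72h against 48h these were Eif1a (-0.0094), Eif2b1 (-0.027), Eif3b (-0.015), Eif3i (-0.025), Eif3j2 (-0.037), Eif3k (-0.010), Eif3l (-0.033), Eif4a1 (-0.0061) and Eif4h (-0.023) with median-of-ratios, Eif2b1 (-0.0048), Eif2s3x (0.072), Eif3b (-0.034), Eif3d (0.0025), Eif3j2 (-0.0087) and Eif4h (-0.014) with quantile, Eif3j2 (-0.0049) with voom and Eif1a (-0.0048 to 0.079), Eif1ad (-0.078 to 0.025), Eif2b1 (-0.053 to 0.069), Eif2s3x (-0.030 to 0.018), Eif3i (-5.3e-05 to 0.048), Eif3j2 (-0.053 to 0.077) and Eif3l (-0.0024 to 0.062) on leaving 1 library out. Over the 240 fold changes of the 48 factors, alternatives lost a call 45 times, of which 16 with median-of-ratios scaling, 13 with quantile normalization, 7 with voom, 6 on leaving out 1 library and 3 with a pseudocount of 5, gained one 113 times, of which 97 with no fold minimum, and turned a sign 60 times. The cause of these changes was not tested. With 3 libraries a group no permutation p can fall below 0.1.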

Other observations

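Ranked by mean TPM among the 12630 genes tested, with 1 for the most abundant, Eif5a stood at 44 at 24h and 235 in Naive. Eif3b stood at 172 at 24h and 997 in Naive, and Eif2s1 at 482 at 24h and 3043 in Naive. Eif1 stood at 154 at 24h and 90 in Naive, and Eif3h, whose TPM differed little, at 147 and 146. Eif4e3 stood at 6043 in Naive, 5079 at 24h, 2453 at 48h and 1202 at 72h, and Eif4ebp1 at 7409 in Naive, 2773 at 24h, 1228 at 48h and 2330 at 72h. The rarest tested factors in Naive, Eif5a2 and Eif2b3, stood at 10220 and 10206 there. These ranks are given as values, with no test.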
